A study of Saccharomyces cerevisiae with 2 samples.

Results

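The outermost DNA of the 16 nuclear chromosomes of the budding yeast Saccharomyces cerevisiae was examined in 2 maps of mononucleosomal DNA. An end was taken as all whole 1 kb bins lying within 20 kb of the first or the last tagged position of a chromosome, counted over both maps. This gave 32 ends of 19 bins each, 608 of 11969 whole nuclear bins, or 5.08%. Ends are called left where coordinates are lowest and right where they are highest. Bins farther than 50 kb from any end, 10369 of them, are called the interior and served as the comparison. They were also cut into 536 windows of 19 bins, the size of an end.

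Both cultures were of a strain with a MYC tag on Pho4 (PHO4-MYC::TRP1) and an HA tag on Cbf1 (CBF1-3HA::LEU2), so the tagged proteins were common to both groups. Pho4 is the activator of the phosphate starvation genes, and Cbf1 binds the same core DNA sequence. Log-phase cells spent 3 hours without phosphate and then 80 minutes either without phosphate (0 mM, called starvation) or at 10 mM (called high phosphate). Mononucleosomal DNA was released with micrococcal nuclease, which cuts the linker between nucleosomes, and each uniquely placed sequencing tag marks an edge of a fragment.

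Yeast telomeres consist of short irregular repeats bound by Rap1, which recruits the Sir2, Sir3 and Sir4 silencing proteins. Sir2 removes acetyl groups from histones, and the resulting compact chromatin can repress genes placed near a telomere. Inside the telomeric repeats lie X elements and, at some ends, Y' elements, followed by genes of families that occur at many ends. Sequences that recur elsewhere in the genome give tags without a unique place.

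The starvation map held 1001229 nuclear tags and the high phosphate map 2598022. Of these, 30618 and 86784 fell in the ends, which is 3.06% and 3.34% of the nuclear tags. With 1 library made per condition, library and condition cannot be told apart, and conditions were compared without a test. Intervals given below cover counting error only. The deposited positions contain no repeats, so each position and strand counts at most 1 tag, and strong positions are compressed most where depth is highest.

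Which genes lie at these ends is known by order alone, from the RefSeq table of assembly R64, because no annotation of the files' build (sacCer1) was used. The symbols below describe the neighbourhood and were not placed on the measured bins. Among the 10 outermost protein-coding genes of each end, PAU genes, which encode small cell wall mannoproteins named seripauperins, occurred at 19 of 32 ends. COS genes, which encode membrane proteins of the endosomal sorting pathway, occurred at 11 ends. YRF1 genes, which encode the helicases of Y' elements, occurred at 7 ends, HXT hexose transporter genes at 5, and FLO genes, which encode cell adhesion proteins, at 3. PHO genes of phosphate metabolism occurred at 3 ends. PHO11, which encodes a secreted acid phosphatase, was the outermost gene on the right of chromosome 1. PHO12, which encodes a closely related acid phosphatase, lay on the right of chromosome 8. PHO89, which encodes a phosphate transporter, lay on the right of chromosome 2. The left end of chromosome 3 had HMLALPHA1 and HMLALPHA2, the silent copies of mating type genes, among its 10 outermost genes. Genes without a symbol, 98 of them at 30 ends, were assigned to no family, so the family counts cover named genes only.

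Tag density was low at the ends under both conditions. The ends held 50.4 tags per kb in starvation against 85.1 in the interior, which is 0.592 of the interior (95% exact Poisson interval 0.585 to 0.598). In high phosphate they held 142.7 against 220.9 tags per kb, which is 0.646 of the interior (0.642 to 0.650). The density of the single ends ran from 0.0328 to 1.05 of the interior in starvation, with a median of 0.643, and from 0.0195 to 1.10 in high phosphate, with a median of 0.722. It was below the interior mean at 30 of 32 ends in starvation and at 27 of 32 in high phosphate. Among the 536 interior windows, 52.2% and 39.4% were below it. An end under 0.5 of the interior was found 12 times in starvation and 10 times in high phosphate, against 10 and 7 of the 536 interior windows.

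Density rose from the outermost bins inwards in both libraries. Within 5 kb of the outermost tag it was 0.324 of the interior in starvation and 0.383 in high phosphate. From 5 to 10 kb it was 0.492 and 0.564, and from 10 to 15 kb it was 0.687 and 0.775. From 15 to 20 kb it reached 0.934 and 0.924, and from 20 to 30 kb it was 0.970 and 0.941. Distance here is that of the outer edge of a bin. The bins from 19 to 20 kb therefore run past the 20 kb limit and are not among the 608 end bins. The low density was thus mostly a feature of the outer 15 kb, as the plot of density by distance shows.

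**Figure D1:**
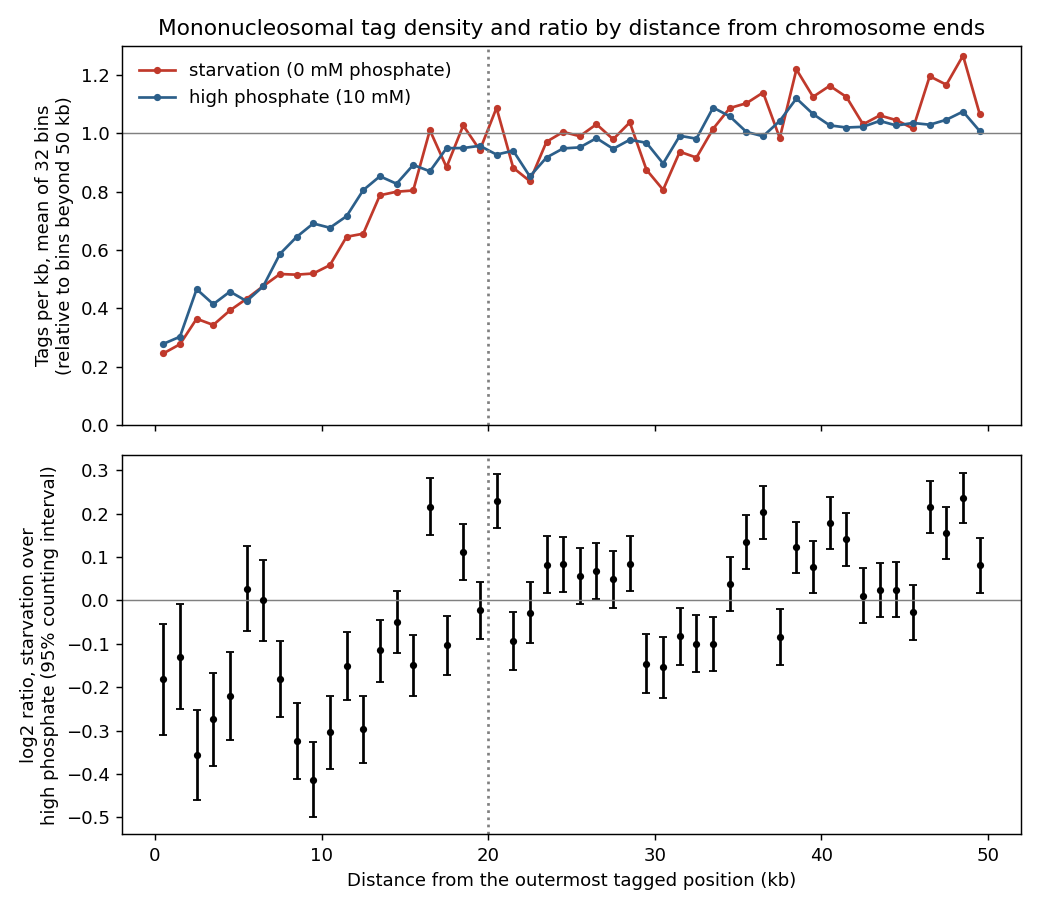
Tags per kb relative to the interior (upper panel, mean of 32 bins per 1 kb step) and log2 ratio of starvation over high phosphate with 95% exact binomial counting intervals (lower panel), against distance from the outermost tagged position in kb. Density climbs from 0.245 and 0.278 of the interior in the outermost kb to 0.943 and 0.957 at 19 to 20 kb (dotted line at 20 kb), and most ratios within 15 kb lie below 0. Distance is that of the outer edge of a bin, so the bins at 19 to 20 kb lie partly beyond 20 kb and outside the ends.

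A large share of this deficit lay in DNA with no tags in either library. Stretches of more than 400 bp without a tag made up 168.3 kb or 27.7% of the ends, but 3.19% of the interior windows. Of the 32 ends, 26 had at least 1 such stretch, against 14.4% of interior windows. Of the 608 end bins, 75 held no tag at all, beside 287 of all 11969 nuclear bins and 205 of the 10369 interior bins. Per kb of DNA outside such stretches, the density of the ends was 0.793 of the interior in starvation and 0.865 in high phosphate. In the 70 bins within 5 kb that touched no such stretch it was 0.646 and 0.766 of the whole interior, where the interior bins of the same kind stood at 1.03 in both libraries. How many positions of the ends can be placed uniquely was not measured, and whether the strain carries the reference DNA at every end was not tested.

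A small group of ends stood apart as sparse. At the right ends of chromosomes 1, 8, 10, 14 and 15 and the left end of chromosome 4, density was under 0.2 of the interior in both libraries. Only 1 of the 536 interior windows was as sparse. Untagged stretches covered from 68.3% (right of chromosome 15) to 84.9% (right of chromosome 1) of these 6 ends.

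The right end of chromosome 1, where PHO11 is the outermost gene, was the sparsest in both libraries. It held 53 tags in starvation and 82 in high phosphate, or 0.0328 and 0.0195 of the interior density. Its longest untagged stretch was 8242 bp, and 8 of its 19 bins were empty, all of them at the inner side of the end. Next in starvation came the right end of chromosome 14 with 186 tags and the right end of chromosome 15 with 209. In high phosphate the next were the right end of chromosome 14 with 588 tags and the left end of chromosome 4 with 605. The right end of chromosome 8, which has PHO12 among its outermost genes, held 266 and 616 tags with 72.6% of its length untagged. With PHO89 among its genes, the right end of chromosome 2 was well covered, with 1325 and 3545 tags and 5.64% untagged.

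The left end of chromosome 4 and the right end of chromosome 10 were sparse to a like degree and share the longest series of gene families. Both carry a COS, an MPH (maltose permease homologue), a SOR (sorbitol dehydrogenase), an HXT, a THI (thiamine synthesis) and an AAD (aryl-alcohol dehydrogenase family) gene among their 10 outermost genes. They were 77.7% and 76.4% untagged. Similarly, the right end of chromosome 15 and the left end of chromosome 16 share 5 families, YRF, PAU, ERR (enolase-related), HSP and FEX (fluoride exporters), and were 68.3% and 29.95% untagged. The left ends of chromosomes 6 and 14 also share 5 families and were 25.4% and 15.7% untagged. Over the 11 ends that share at least 3 families with another end, the untagged share had a median of 25.4% (range 0% to 77.7%). Over the other 21 ends it had a median of 14.1% (0% to 84.9%). These ranges overlap almost entirely, and the grouping was chosen with the densities known.

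At the other extreme, 6 ends had no untagged stretch and some were as dense as the interior. The left end of chromosome 15 held 1694 tags in starvation, 1.05 of the interior, and 4449 in high phosphate, 1.06 of the interior. Nearly as dense, the right end of chromosome 5, which has YRF1-2 among its outermost genes, held 1687 and 4454 tags, or 1.04 and 1.06 of the interior. It had 1 untagged stretch, 3.47% of its length, and is not among the 6. In starvation the right end of chromosome 9 was the third densest, at 0.991 of the interior. Densest in high phosphate was the right end of chromosome 16 with 4604 tags, 1.10 of the interior, but stood at 0.853 in starvation with 1379 tags. The arsenic resistance genes ARR1, ARR2 and ARR3 are among its outermost genes.

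**Figure D2:**
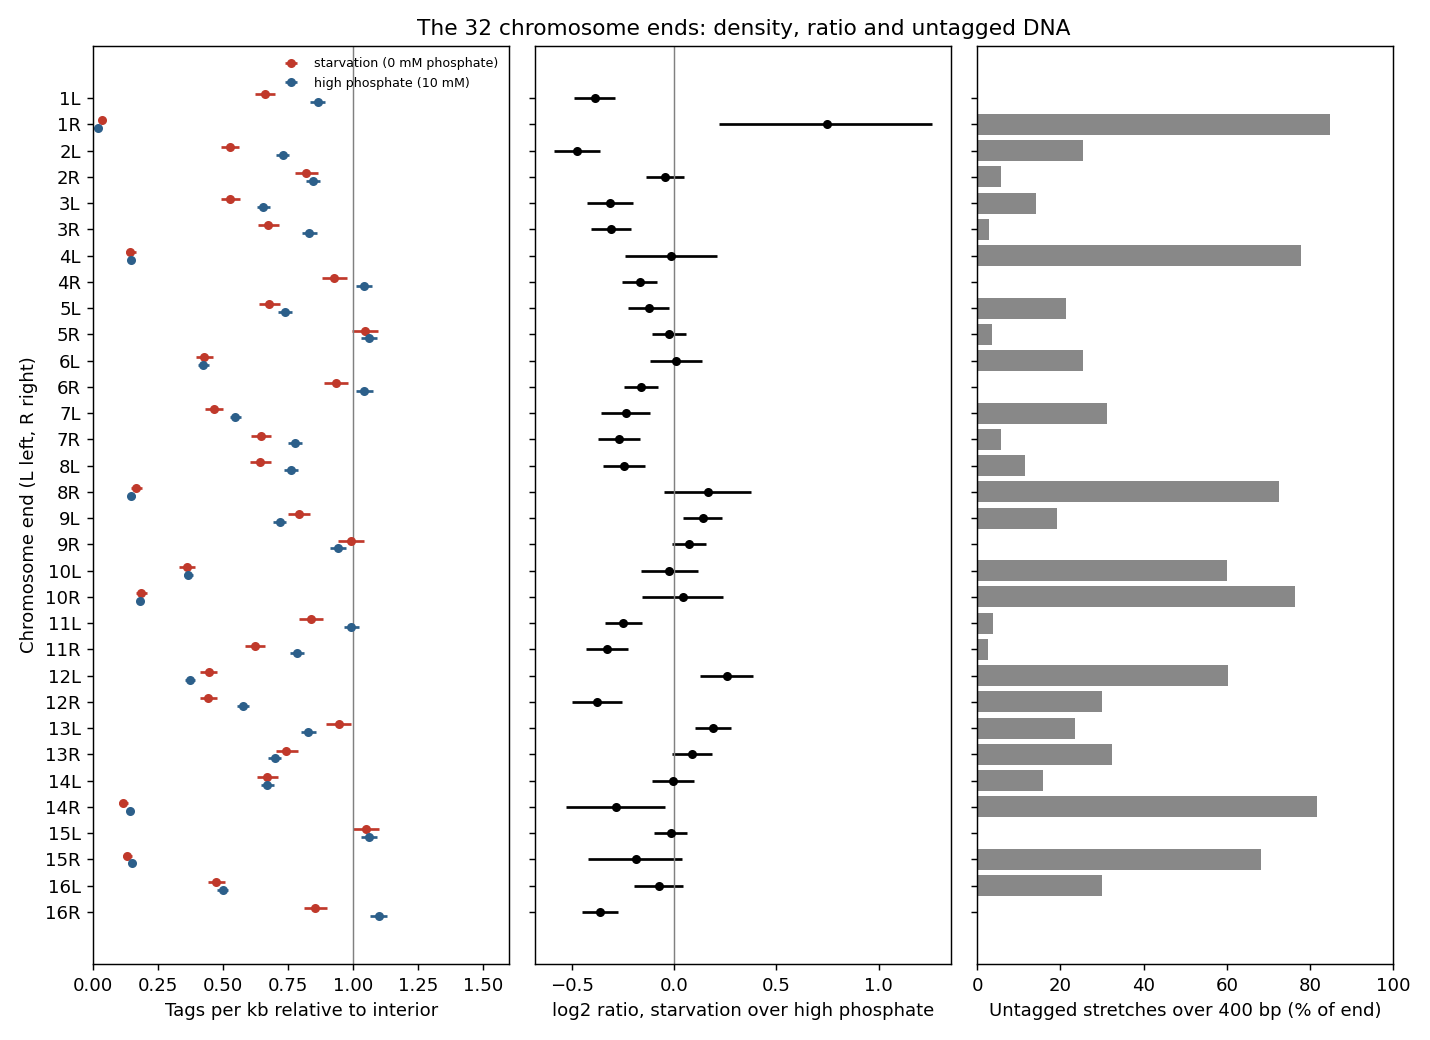
Each of the 32 ends by chromosome number and side (L left, R right): tags per kb relative to the interior with 95% exact Poisson intervals (left), log2 ratio of starvation over high phosphate with 95% exact binomial intervals (middle) and the percentage of the end in untagged stretches over 400 bp (right). The 6 ends under 0.2 of the interior density are those with at least 68.3% of their length untagged, and 23 of 32 ratios lie below 0.

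Relative to the nuclear totals, the ends held fewer tags in starvation than in high phosphate. Summed over all 32 ends, starvation over high phosphate had a log2 ratio of -0.13 (95% exact binomial interval -0.15 to -0.11). Single ends ran from -0.48 to 0.75 with a median of -0.10. The interior windows ran more widely, from -0.80 to 1.38, with a median of -0.033. The ratio was below 0 at 23 of 32 ends, or 71.9%, and in 54.3% of the interior windows. Its interval lay below 0 at 15 ends, or 46.9%, where 41.4% of all 568 ends and interior windows did. It lay above 0 at 4 ends, or 12.5%, where 30.8% of all did. It included 0 at 13 ends, or 40.6%, and in 27.1% of the interior windows, so these shares of calls are not taken over equally precise ratios. Scaling to the median 10 kb bin in place of the nuclear totals gave a summed ratio of -0.069 (-0.088 to -0.050). Under that scaling 17 of 32 ends, or 53.1%, and 45.7% of the interior windows were below 0, and the interval lay below 0 at 13 ends (40.6%) and above 0 at 7 (21.9%), beside 33.0% and 41.2% of the interior windows.

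The deficit in starvation was largest in the outer 15 kb. From 0 to 5 kb the log2 ratio was -0.24 (-0.29 to -0.19), with 22 of the 29 ends that had tags in both libraries below 0. From 5 to 10 kb it was -0.20 (-0.24 to -0.16; 23 of 30 ends) and from 10 to 15 kb it was -0.17 (-0.21 to -0.14; 23 of 31 ends). From 15 to 20 kb it was 0.015 (-0.015 to 0.045; 16 of 32 ends), and from 20 to 30 kb it was 0.042 (0.021 to 0.063; 13 of 32 ends). From 30 to 50 kb it was 0.061 (0.047 to 0.075; 12 of 32 ends). In bins that touched no untagged stretch the values were nearly the same, -0.25, -0.21 and -0.17 in the 3 outer classes and 0.019 from 15 to 20 kb. Single 1 kb steps varied more than their counting intervals. The step from 9 to 10 kb was the lowest at -0.41 (-0.50 to -0.33), while the steps from 5 to 7 kb lay near 0. Of the 15 steps within 15 kb, 12 had an interval wholly below 0 and 0 had one wholly above it. These are sums over ends. From 0 to 1 kb and from 1 to 2 kb only 10 of the 21 ends with tags in both libraries were below 0. The median ratio of these ends was 0.025 and 0.00013. Farther in, steps below 0 occurred among steps above it. From 15 to 20 kb there were 2 of each among 5 steps, and from 20 to 50 kb 7 of the 30 steps lay below 0 and 15 above it. All 5 steps from 29 to 34 kb were below 0, from -0.15 to -0.082, at 23 to 25 ends each.

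Chromosomes differed as wholes between the libraries, so each end was also set beside the interior of its own chromosome. The end lay below that interior at 23 of 32 ends, or 71.9%, where 54.4% of all ends and windows did. The median difference was -0.11, against -0.017 for interior windows. Its lowest values were on the shorter chromosomes: -0.64 at the left end of chromosome 1, and -0.59 and -0.58 at the left and right ends of chromosome 3. The interiors of these chromosomes were higher in starvation, with log2 ratios of 0.25 and 0.28. The sparse right end of chromosome 1 lay above its interior, by 0.50.

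The 3 ends with the lowest ratio were the left end of chromosome 2 (847 tags in starvation, 3055 in high phosphate, log2 ratio -0.48, interval -0.59 to -0.36), the left end of chromosome 1 (1066 and 3619 tags, -0.39, -0.49 to -0.29) and the right end of chromosome 12 (716 and 2413 tags, -0.38, -0.50 to -0.26). PAU9 and PAU8 lie among the outermost genes of the left ends of chromosomes 2 and 1. YRF1-4, YRF1-5 and PAU4 lie among those of the right end of chromosome 12. All 3 ends with the lowest ratio were also below 0 relative to their own chromosome, by -0.44, -0.64 and -0.38. Such ratios also occurred in the interior, where 17, 32 and 35 of the 536 windows were lower than these ends in turn.

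The 3 ends with the highest ratio rested on fewer tags or smaller differences. Highest was the right end of chromosome 1, with a log2 ratio of 0.75, but it held only 53 and 82 tags, and its interval ran from 0.22 to 1.26. With the high phosphate library thinned to the depth of the other, its ratio was 0.48 with an interval that included 0 (-0.15 to 1.12). The left end of chromosome 12 had 717 and 1557 tags and a ratio of 0.26 (0.13 to 0.39), with 60.4% of its length untagged and 9 empty bins. The left end of chromosome 13, which has COS3 among its outermost genes, had 1525 and 3472 tags and a ratio of 0.19 (0.10 to 0.28). The left end of chromosome 9 was the only other end with an interval above 0, at 0.14 (0.044 to 0.23). Without the 6 sparse ends the summed ratio was -0.13 as before.

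Neither side stood out in the ratio. The median ratio was -0.049 over the 16 left ends and -0.16 over the 16 right ends, and 12 and 11 of them were below 0. In coverage the sides differed as measured here. Of the 6 sparse ends 5 were right ends, while the median untagged share was 22.35% on the left and 5.67% on the right. Ends were measured inwards from the outermost tag, and untagged DNA outside it was not counted. On the left the outermost tag lay as far in as position 16023 on chromosome 9, 8405 on chromosome 10 and 7608 on chromosome 16. The difference between the sides may therefore depend on this starting point, which was not tested. Opposite ends of a chromosome could differ, as on chromosome 12 (0.26 left, -0.38 right). All 7 ends with a YRF1 gene among their 10 outermost genes had a ratio below 0, from -0.38 to -0.0052, as did 16 of the other 25. With scaling to the median 10 kb bin, 5 of the 7 and 12 of the other 25 were below 0. At 4 of these 7 ends the interval included 0, and the grouping was chosen with the ratios known. Genes without a symbol were not sorted, so the other 25 ends are not known to lack related genes.

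Few single 1 kb bins of the ends were at least 2-fold higher in starvation. Of the 464 end bins holding 20 or more tags in the libraries together, 42 were at least 2-fold lower in starvation, which is 9.05%, beside 9.41% of all nuclear bins. At least 2-fold higher were 12 end bins, which is 2.59%, beside 6.45% of all nuclear bins. Outside the 6 sparse ends, 39 lower and 8 higher bins remained of 430. The median end bin had a log2 ratio of -0.31, the median of all bins being -0.23, and 35.1% of end bins and 39.1% of all bins lay above 0. The share of strongly lower 1 kb bins was thus near the background, while strongly higher bins were less frequent than in the genome. The first of these depended on bin size. Lower bins made up 5.04% of the ends against 3.43% of all in 2 kb bins, but 14.9% against 16.7% in 500 bp bins. Higher bins were less frequent at the ends at both of these sizes too. No test of these differences was made.

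Single bins were ranked by the interval bound nearest to 0, which places well-covered bins first. The 6 falls that led this ranking lay in bins whose outer edge was 12.4 to 17.3 kb from the outermost tag. By the ratio itself, 3 bins with few tags fell further than any of the 6, and those on the right of chromosome 2 from 806001 (1 and 25 tags) and on the left of chromosome 14 from 10001 (4 and 37 tags) were 3.24 and 3.39 kb from the outermost tag. The first in the ranking was chromosome 16 from 20001 to 21000 (sacCer1, left end), where 29 starvation tags stood against 234 high phosphate tags and the log2 ratio was -1.64 (-2.25 to -1.08). That is 0.403 of the median starvation bin and 1.05 of the median high phosphate bin. On the right of chromosome 16 the neighbouring bins from 925001 to 926000 and from 926001 to 927000 held 45 and 37 starvation tags against 305 and 247, with ratios of -1.39 and -1.36. The other 3 named falls began at 1073001 on chromosome 15 (26 and 187 tags, -1.47), at 17001 on chromosome 12 (32 and 219 tags, -1.40) and at 13001 on chromosome 2 (33 and 218 tags, -1.35).

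Sharp local contrast was present beside these falls. The bin from 927001 to 928000 on chromosome 16, next to the fallen pair, held 136 starvation tags and 162 high phosphate tags, giving a ratio of 1.12 (0.78 to 1.46). The first rise in the same ranking was on the right of chromosome 9 from 422001 to 423000, where the ratio was 1.46 (1.18 to 1.74) with 218 and 206 tags. By the ratio itself 1 bin was higher, on the right of chromosome 8 from 541001, with 16 and 15 tags. The bin on chromosome 9 was 3.03 times the median bin in starvation but 0.924 of the median bin in high phosphate. The adjoining bin from 421001 to 422000 was also higher, at 1.12 with 189 and 225 tags. The remaining named rises began at 7001 on chromosome 15 (200 and 216 tags, 1.26) and at 22001 and 16001 on chromosome 13 (223 and 274 tags, 1.08; 198 and 244 tags, 1.07). All 6 named rises were above the median bin of the starvation library by at least 1.89 times.

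Measured over several nucleosomes, spacing was somewhat wider over all ends together than over the whole interior in both libraries. The distance to the nearest neighbour, the first peak described below, was not longer at the ends. The nucleosome repeat, or centre-to-centre spacing, was taken as the slope over 5 peaks of the distances between tags moved 73 bp towards the fragment middle. Over all 32 ends it was 168.4 bp (starvation) and 168.5 bp (high phosphate). Over the interior windows it was 163.2 and 163.8 bp. The peaks at the ends stood at 166, 326, 515, 670 and 836 bp in starvation and at 169, 334, 503, 681 and 838 bp in high phosphate. In the interior they stood at 169, 337, 502, 661 and 823 bp in starvation and at 169, 337, 501, 665 and 824 bp in high phosphate. In high phosphate the first 3 peaks of ends and interior lay within a few bp of each other and the fourth and the fifth were farther out at the ends. In starvation the peaks of the ends were less evenly spaced, the first and the second lying nearer than in the interior and the third to the fifth farther out.

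**Figure D3:**
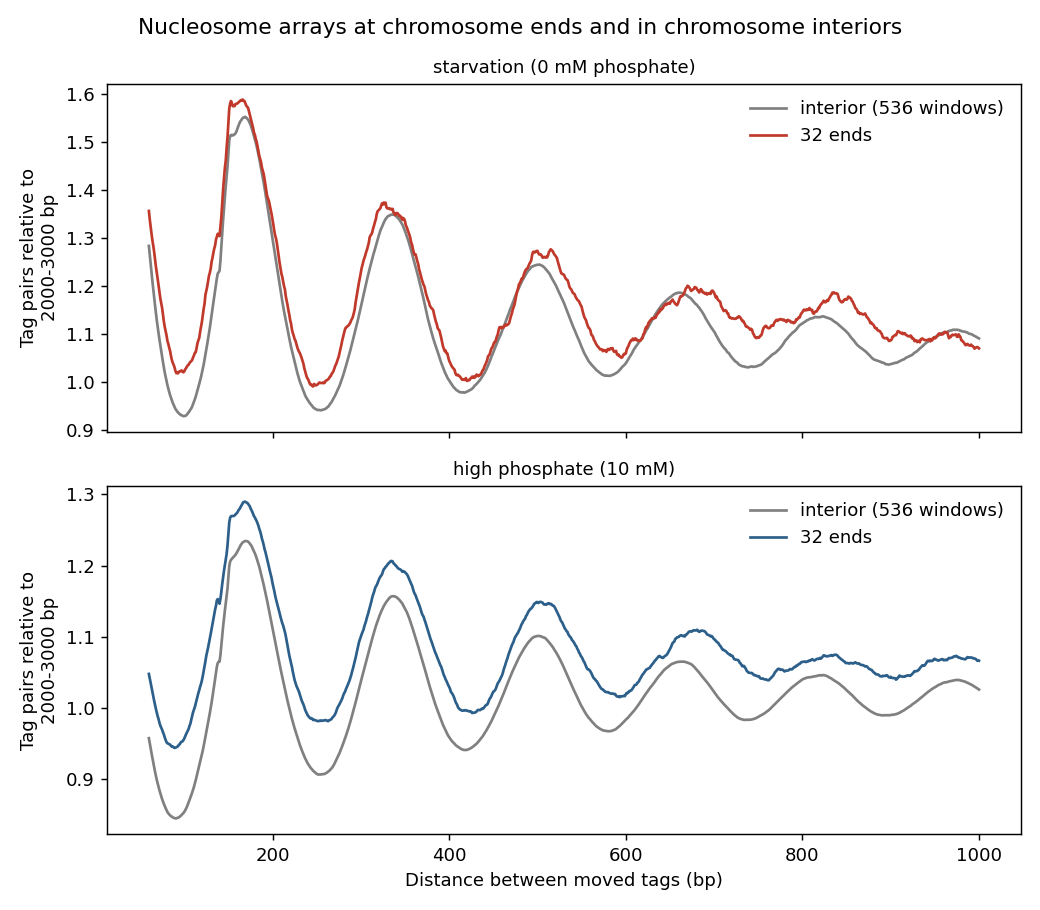
Number of pairs of moved tags at each distance in bp, relative to the mean at 2000 to 3000 bp, for the 32 ends (coloured) and the 536 interior windows (grey) in starvation (upper panel) and high phosphate (lower panel), after an 11 bp running mean. The fifth peak lies at 836 and 838 bp at the ends and at 823 and 824 bp in the interior.

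A cosine fitted to the whole curve from 100 to 900 bp, an estimate that does not pick single peaks, gave the same order. It was 168 bp at the ends in both libraries, and 163.5 bp (starvation) and 163 bp (high phosphate) in the interior. As a measure of spread, the 9 chromosomes whose interior is at least as long as all ends together gave 162 to 164.5 bp (starvation) and 162 to 164 bp (high phosphate), below the ends. These 9 interiors hold 55469 to 108217 starvation tags and 143250 to 297672 high phosphate tags, more than the 30618 and 86784 at the ends. Their spread may therefore be too narrow for the depth of the ends. The other 7 interiors, 114 to 551 kb long, hold 11860 to 47932 and 25131 to 126717 tags, a range that includes the ends. They spread more widely, from 160 to 167.5 bp and from 161.5 to 168.5 bp. The highest of these 7 was the interior of chromosome 6, at 167.5 bp (starvation) and 168.5 bp (high phosphate), the latter above the ends. By the slope over peaks it gave 168.2 and 170.5 bp. A repeat as long as that of the ends was thus also found in 1 of 16 interiors in high phosphate and in 0 of 16 in starvation. DNA from 20 to 50 kb lay in between, at 165 and 165.5 bp. Left ends gave 165.5 and 168 bp, and right ends 171 and 168.5 bp. The outer parts of the ends gave 170 and 167.5 bp, and the inner parts 166.5 and 169 bp. The slope over peaks was less even across these parts: in high phosphate the inner parts gave 161 bp, below the interior, and in starvation the left ends gave 163.6 bp.

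**Figure D4:**
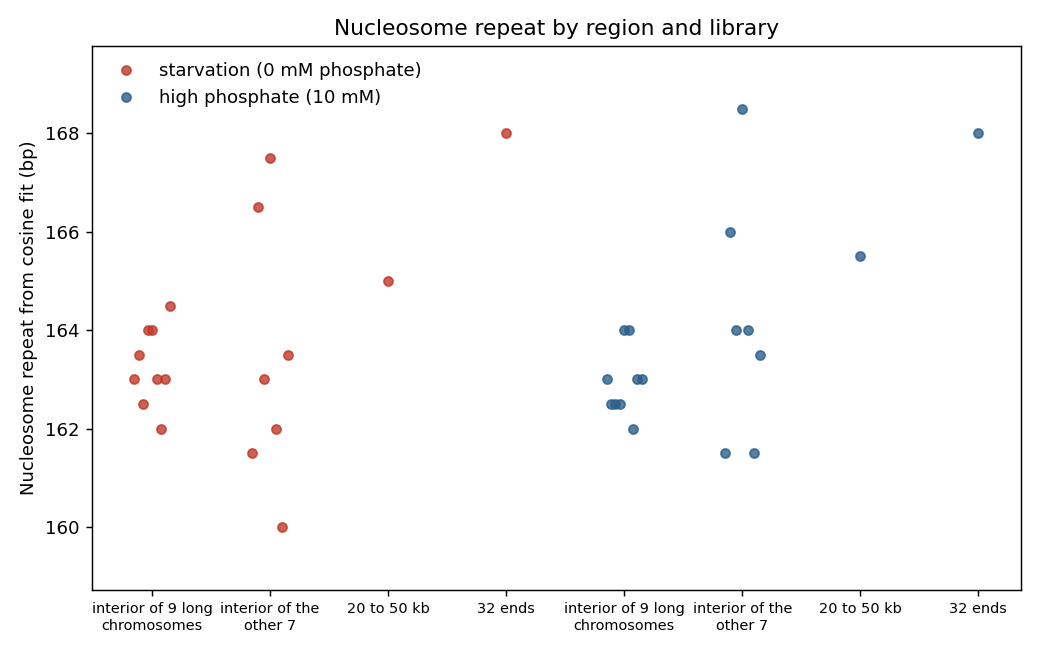
Nucleosome repeat in bp from the cosine fit, for the interiors of 9 chromosomes at least 608 kb long and of the other 7 (1 point each), for all DNA 20 to 50 kb from an end and for the 32 ends together, in starvation (red) and high phosphate (blue). The vertical axis does not start at 0. The ends lie at 168 bp in both libraries, above all 9 long interiors, and the highest of the other 7 interiors reaches 167.5 bp (starvation) and 168.5 bp (high phosphate).

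On single chromosomes the repeat of the ends was imprecise, since both ends together span only 38 kb. By the cosine fit it was 170.8 ± 9.23 bp (starvation) and 168.5 ± 5.08 bp (high phosphate; SD, n = 16 chromosomes). It exceeded the repeat of the interior of the same chromosome on 14 of 16 chromosomes in each library, by 7.47 ± 8.97 bp (starvation) and 5.03 ± 5.14 bp (high phosphate). By the slope over peaks it did so on 13 and 14 of 16. The ends of chromosome 3 had long repeats in both libraries, 186 and 174.5 bp, where the interior of that chromosome gave 166.5 and 166 bp. The ends of chromosome 16 went the other way, at 153.5 and 160 bp. Between the libraries the repeat of the ends differed by 2.31 ± 8.69 bp (starvation minus high phosphate). It was longer in starvation on 8 of 16 chromosomes and shorter on the other 8.

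Fragment length differed by only a few bp between the ends and the interior, and the direction of this difference changed with the setting. The strand offset, the lag at which tags of opposite strands were most often found together, was 152 bp at the ends and 155 bp in the interior in starvation, and 137 against 142 bp in high phosphate. The difference between ends and interior was -0.31 ± 7.39 bp (starvation) and -2.81 ± 8.12 bp (high phosphate; SD, n = 16 chromosomes). The ends had the shorter offset on 9 chromosomes in starvation and on 11 in high phosphate, and the longer on 7 and 4. With the high phosphate library thinned to the depth of the other, the offset of its ends was 143 bp against 142 bp. Fragments of the starvation library were longer than those of the high phosphate library at the ends as in the interior, by 16.3 ± 9.92 bp and 13.8 ± 2.61 bp, on 16 of 16 chromosomes each. Of the 26 ends with at least 500 tags in each library, 25 showed the longer offset in starvation, or 96.2%, as did 92.9% of 535 interior windows.

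Array peaks were not clearly higher or lower at the ends. The first peak stood at 1.59 times the distant level in starvation, against 1.55 in the interior, and at 1.29 against 1.23 in high phosphate. When only tagged DNA between untagged stretches was used, the order turned, to 1.38 against 1.52 in starvation and 1.12 against 1.21 in high phosphate. At the ends, as in the interior, the first peak was higher in starvation than in high phosphate on 16 of 16 chromosomes, by 0.375 ± 0.246 (SD) at the ends and 0.334 ± 0.067 in the interior.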

How the data were processed

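Mononucleosomal tags came from 1 starvation and 1 high phosphate library. Per the labels' protocols, libraries were sequenced on the Illumina Genome Analyzer and placed on the sacCer1 yeast release. The aligner is not given in the sources used here, nor is the read length. The deposited files hold chromosome, position and strand of every tag, without header or level; 0 lines repeat. Positions may be 0-based or 1-based and were used as deposited.

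Tags were moved 73 bp towards the fragment middle and counted in 1 kb bins lying wholly between the outermost tags. Ratios were scaled to nuclear tags, with 95% exact (Clopper-Pearson) intervals. Density intervals are exact Poisson. Single bins needed at least 20 tags over both libraries. Pair counts were divided by the length available at each lag, with an 11 bp running mean, and the offset was sought from 80 to 250 bp. The cosine fit had a decay of 400 bp and a quadratic trend. SDs are over chromosomes, which are not replicates. Functions were tested on simulated data. Python 3.11.15, numpy 2.4.6, scipy 1.17.1 and pandas 2.3.3 were used.

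Named were the 3 ends with the highest and lowest ratio, the 3 with the highest and lowest density per library, and the 6 largest falls and rises among end bins by the interval bound nearest to 0. Members and gene groupings were chosen with earlier results of these data known. Genes were not placed on bins, since the gene table is of assembly R64, and no sequence is shown for the same reason.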

Additional observations from a re-analysis of the deposited data

Results flagged for a closer look

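Tags on the mitochondrial genome lie outside the nuclear measurement and entered none of the values above. They made up 1.16% of the starvation library and 0.196% of the high phosphate library.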

How the results depend on the processing

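No paired analysis was possible because only 1 library was made per condition, which also leaves no replicate to omit. With scaling to the median 10 kb bin, which raised every log2 ratio by 0.058, the summed ratio of the ends was -0.069. With ends of 10 kb and 30 kb it was -0.19 and -0.046, the density in starvation was 0.396 and 0.724 of the interior, and the density in high phosphate was 0.450 and 0.748. Bins without untagged stretches gave densities of 0.841 and 0.917, and the correction for filled positions gave 0.584 and 0.642. An interior beyond 100 kb gave 0.602 in starvation. The counts of 2-fold lower and higher bins were 16 and 3 of 189 (8.47% and 1.59%) with ends of 10 kb and 64 and 33 of 773 (8.28% and 4.27%) with ends of 30 kb, beside 9.41% and 6.45% of all bins. They were 131 and 44 of 877 (14.9% and 5.02%) in 500 bp bins, beside 16.7% and 9.25% of all such bins, and 12 and 7 of 238 (5.04% and 2.94%) in 2 kb bins, beside 3.43% and 4.16%. The count of ends below their own interior ran from 21 to 24 over 8 alternatives. The repeat of the ends exceeded that of the interior under every setting tried, by 3.8 to 8.4 bp in starvation and 2.7 to 5.6 bp in high phosphate. The cosine fit, the 31 bp running mean and leaving out the 6 sparse ends were added after the data were seen. The offset of the ends ran from 152 to 155 bp in starvation and from 136 to 143 bp in high phosphate, and its difference from the interior changed sign with the setting. The 100 values of named ends and bins under 4 alternatives lay within the counting intervals of the reported values, but 4 interval calls at 3 of the 13 named ends changed. The right end of chromosome 1 no longer lay wholly above 0 with the library thinned (0.48). The right end of chromosome 14 no longer lay wholly below 0 with the library thinned (-0.22) or under median scaling (-0.23), and the right end of chromosome 9 lay wholly above 0 under median scaling (0.13). No call changed at the 12 named bins. Depth limits the sparse ends most, where fewer than 300 starvation tags carry each ratio.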

Other observations

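The outermost tagged position differed between the libraries at every end but the right end of chromosome 7. On the left of chromosome 10 the first tag was at 8405 in high phosphate and at 16016 in starvation, on the left of chromosome 16 at 7608 and 12971, and on the left of chromosome 13 at 3739 and 5531 (sacCer1). On the left of chromosome 9 both libraries began at nearly the same place, 16024 and 16023. The starvation library set the right ends of chromosomes 5 and 6 and the left end of chromosome 9. All other ends where the libraries differed were set by the deeper high phosphate library.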
